A study of Mus musculus with 7 samples.

Results

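The CD-numbered antigens are cell surface proteins, most of them receptors, adhesion molecules or co-receptors of blood cells, that carry a cluster-of-differentiation number in their gene symbol. They were taken as the genes with a row of their own whose mouse symbol starts with Cd and a digit. Cd74, Cd37, Cd79a, Cd79b and Cd22 and the intracellular partners Cd2ap, Cd2bp2 and Cd3eap were left out by the same rule. This gave 69 of 14860 genes, each with 1 transcript cluster, which is the set of probes that reads 1 gene. A further 8 clusters pair a Cd symbol with another symbol, and genes read only there, such as Cd24a, were not analysed here. Cd27 and Cd38 were not analysed here either.

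LSK cells are bone marrow cells without mature lineage markers that carry both Sca-1 and c-Kit, and they hold the blood-forming stem cells and their early progeny. RNA of LSK cells from adult FVB mice was read on 1 exon array per mouse, 3 from mice labelled TRAF6 transgenic (03, 04 and 05) and 4 from wild-type littermates (21, 22, 23 and 24), none of them treated. The series asks how excess TRAF6, a ubiquitin ligase that relays Toll-like and interleukin-1 receptor signals to NF-kB, acts on these cells. The promoter that drives the transgene is not given in the sources used here.

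Traf6 itself stood at 8.06, 8.14 and 7.52 on labelled transgenic 03, 04 and 05, and at 7.95, 8.20, 8.12 and 8.33 on wild type 21, 22, 23 and 24, in log2 RMA values (the authors' normalized signal). The groups overlapped (difference -0.24, SE 0.18, limma adjusted p = 0.676), so the arrays gave no check of the label and the mice are called labelled transgenic. Eif2s3y, a Y-linked gene, lay between 2.91 and 3.05 in labelled transgenic and between 8.05 and 8.64 in wild-type cells (adjusted p = 1.82e-05). The labels give no sex, so genotype and this Y-linked signal cannot be told apart in any comparison below. Labelled transgenic 05 stood apart, with the lowest mean correlation with the other arrays (0.966) and the lowest array weight (0.284). In bulk RNA, fewer cells of a type and less RNA per cell cannot be told apart.

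Surface antigens are the working tools of blood cell sorting. Stem cells in mouse marrow are commonly gated within the LSK fraction as CD150-positive and CD48-negative, while CD34, CD48 and FLT3 mark the multipotent progenitors that come after them. Other CD antigens belong to mature lymphocytes, myeloid cells or antigen-presenting cells, and early progenitors are known to carry low levels of RNA for some of them.

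Of the antigens that the LSK sort selects for, only c-Kit was read here. Kit, which encodes c-Kit, averaged 10.45 ± 0.27 (SD, n = 3) in labelled transgenic and 10.50 ± 0.10 (SD, n = 4) in wild-type cells, and 98.1% of clusters had a lower mean. For Cd34, which is not part of that sort, this share was 99.1%. Markers of the lineages that the sort removes were read at mixed levels. The share of clusters below a marker ran from 8.49% to 38.4% over 9 granulocyte markers, from 11.6% (Cd3g) to 97.3% (Nkg7) over 9 T and NK cell markers, from 10.9% to 74.3% (Cd68) over 10 macrophage and monocyte markers and from 6.54% (Ms4a1) to 76.7% (Cd79b) over 7 B cell markers. Ly6a, which encodes Sca-1, was not analysed here.

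No CD antigen passed limma's threshold of adjusted p under 0.05 over all 23332 clusters, where 5 clusters passed (0.0214%). The smallest adjusted p among the 69 was 0.283, that of Cd28. At unadjusted p under 0.05, 10 of the 69 stood out (14.5%), against 10.3% of all clusters. Of these 10, 9 were lower and 1 was higher in labelled transgenic cells, while all clusters gave 5.05% lower and 5.22% higher. The 9 were Cd28, Cd96, Cd14, Cd52, Cd53, Cd4, Cd83, Cd9 and Cd81, and the 1 was Cd48.

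The split among members moved with scaling and with single arrays, and so did that of all clusters. Centring each array on its median gave 6 members lower (8.70%, against 4.23% of all clusters) and 3 higher (4.35%, against 9.25%). Quantile normalization gave 12 lower (17.4%, against 6.36%) and 4 higher (5.80%, against 7.56%). Without labelled transgenic 05 there were 7 lower (10.1%, against 4.07%) and 4 higher (5.80%, against 11.7%). Without wild type 24 there were 6 members under 0.05, 5 of them lower (7.25%, against 3.74% of all clusters).

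Over all 69, 42 were lower and 27 higher, with a median difference of -0.07 beside -0.0018 for all clusters. With centring the members' median was -0.0134 beside 0.0560 for all clusters. Centring shifts every difference by the same amount, so the distance of -0.0694 between these medians could not change. With quantile normalization the members' median was -0.0340 beside 0.0203 for all clusters. The 3 labelled transgenic arrays were all below the 4 wild-type arrays for 13 members and all above for 1, Cd160, together 20.3% of the 69. All clusters gave 5.18% apart in the lower and 5.17% in the higher direction, 10.4% in all. With centring 6 members were apart in the lower direction (8.70%, against 3.80% of all clusters) and 4 in the higher (5.80%, against 9.86%). Without labelled transgenic 05, 16 were apart in the lower direction (23.2%, against 9.15%) and 6 in the higher (8.70%, against 18.7%).

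Most estimates were small, though many of their intervals were wide. The absolute difference was under 0.2 for 37 members and at least 0.5 for 7. The 95% interval lay wholly between -0.5 and 0.5 for 33 of the 69, and for the rest a larger difference was not excluded. A mean signal above the 40th percentile of all clusters was reached by 41 members, and the other 28 were read at low signal. The median SD among wild-type mice was 0.153 over the members and 0.178 over all clusters. Labelled transgenic 05 gave the lowest of the 7 values for 23 members (33.3%, against 31.3% of all clusters). Wild type 24, with the highest median of the 7 arrays (6.21), gave the highest value for 20. The matching share of all clusters was not counted.

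**Figure D1:**
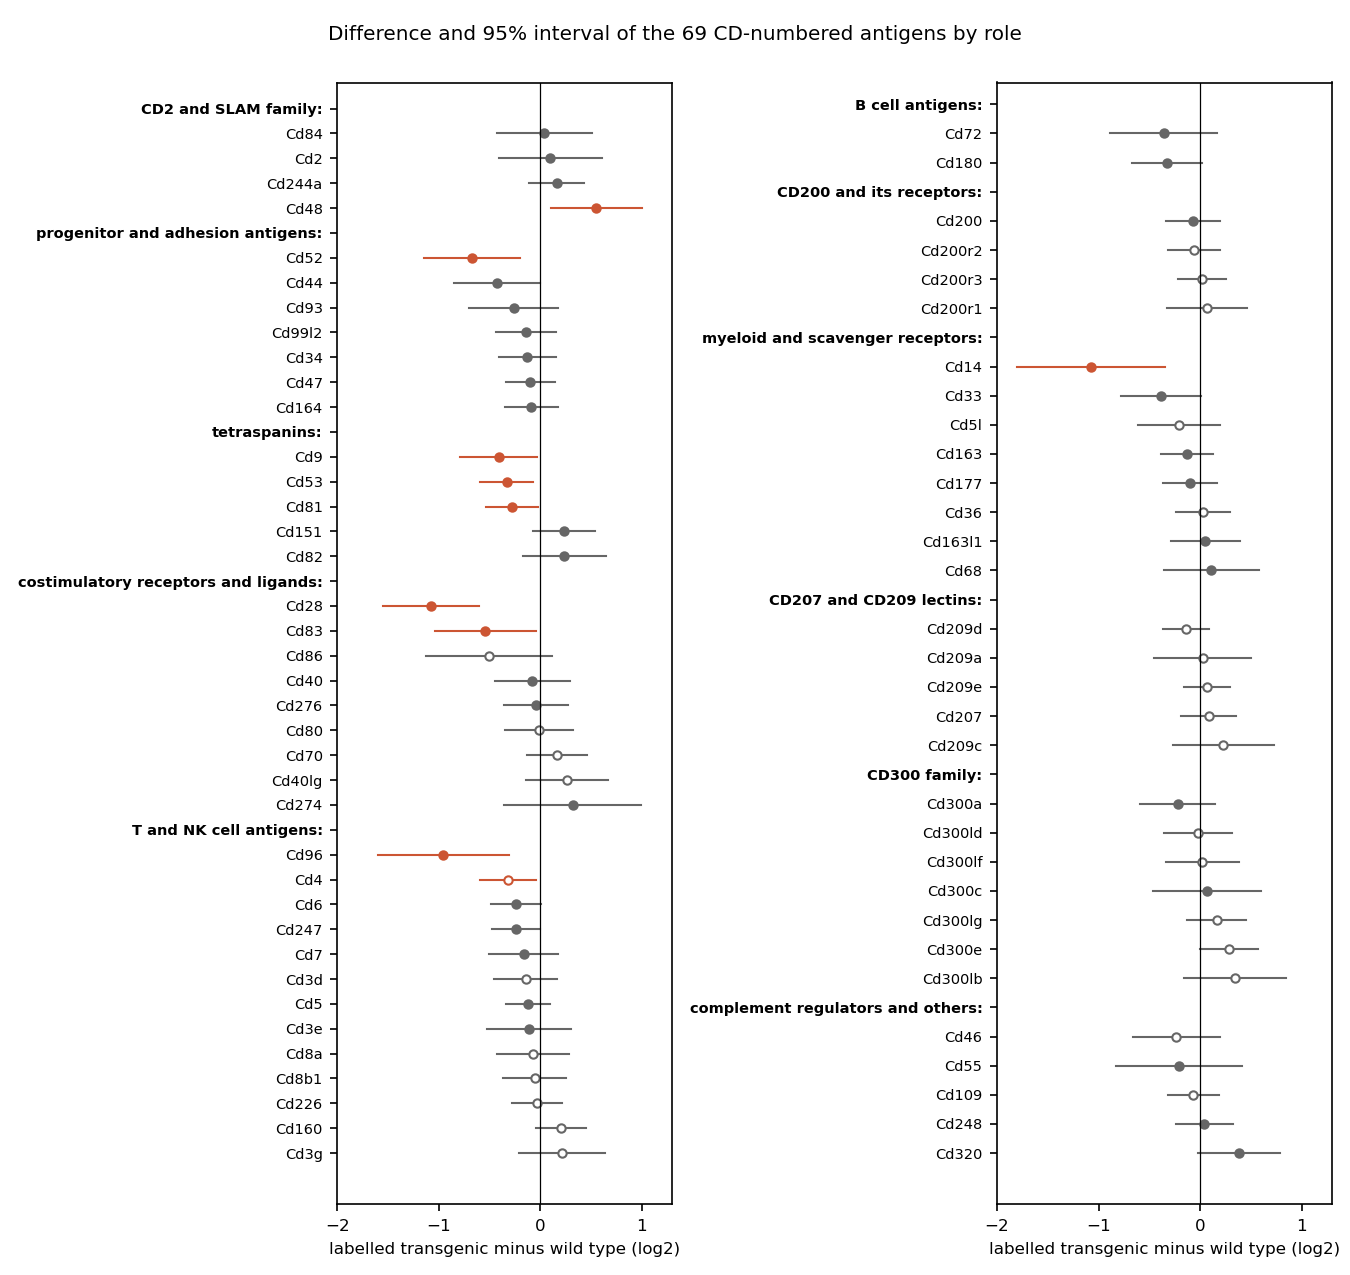
Differences of the 69 CD-numbered antigens, in log2 units of labelled transgenic minus wild type (horizontal axis), grouped by role, with points for the estimate and lines for the 95% interval from limma. Orange marks the 10 members with unadjusted p under 0.05, of which Cd48 alone lies right of 0, and open circles mark the 28 members of low signal.

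The first antigens to describe are those that divide the LSK fraction, beginning with the CD2 and SLAM family. CD48 is a lipid-anchored ligand of CD244 and CD2, and its absence from the surface is used to set stem cells apart from multipotent progenitors. Cd48 read 8.80, 8.81 and 8.30 on labelled transgenic 03, 04 and 05, against 8.35, 8.03, 7.75 and 8.20 on wild type 21, 22, 23 and 24. Array 05 fell between the wild-type values and the other pair lay above all of them. The difference was 0.55 (SE 0.19, limma adjusted p = 0.413), with a 95% interval from 0.11 to 1.00. The estimate ran from 0.44 to 0.72 when single arrays were left out.

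The receptor for CD48, CD244, showed a smaller difference. Cd244a read 5.91, 5.63 and 5.95 on labelled transgenic 03, 04 and 05 and 5.60 to 5.76 in wild type, a difference of 0.16 (SE 0.12, adjusted p = 0.672). Cd84, another SLAM receptor, differed by 0.04 (SE 0.20), and Cd2, the T and NK cell adhesion receptor, by 0.10 (SE 0.22). All 4 estimates of the family were above 0, also with quantile normalization and array weights, and the groups overlapped in each. Centring raised every difference, so it could not turn them. Of all 23332 clusters, 11590 had higher estimates.

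Cd48, Cd84 and Cd244a lie beside Slamf1, Ly9, Slamf6 and Slamf7 on mouse chromosome 1, in the gene order of the assembly GRCm38. Slamf1 encodes CD150, the antigen that marks stem cells in the same gate. It read 7.07, 6.81 and 6.10 on labelled transgenic 03, 04 and 05 against 6.20 to 6.52 in wild type, a difference of 0.26 (SE 0.23, adjusted p = 0.734). Array 05 was the lowest of all 7 and the other pair the highest, and without array 05 the difference was 0.54. Ly9 averaged 6.65 in both groups. Slamf6 (3.86 against 3.80 in wild type) and Slamf7 (4.13 against 4.18) were read at low signal.

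CD34 is a sialomucin that rises as long-term stem cells become short-term stem cells and progenitors in the mouse. Cd34 read 11.14, 11.07 and 10.77 on labelled transgenic 03, 04 and 05, and 11.08 to 11.19 in wild type. Array 05 lay well below the other 6, and the difference was -0.13 (SE 0.12, adjusted p = 0.757). Without that array the difference was -0.01.

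Flt3, whose product marks lymphoid-primed progenitors and is also known as CD135, separated the groups. It read 9.02, 8.90 and 8.63 on labelled transgenic 03, 04 and 05 and 9.43 to 9.66 in wild type (difference -0.67, SE 0.13, adjusted p = 0.283). Ptprc, which encodes CD45, averaged 9.07 ± 0.30 (SD, n = 3) against 9.41 ± 0.23 (SD, n = 4), with overlap. Cd48 and Flt3, which both mark multipotent progenitors, differed in opposite directions, and neither passed the adjusted threshold.

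**Figure D2:**
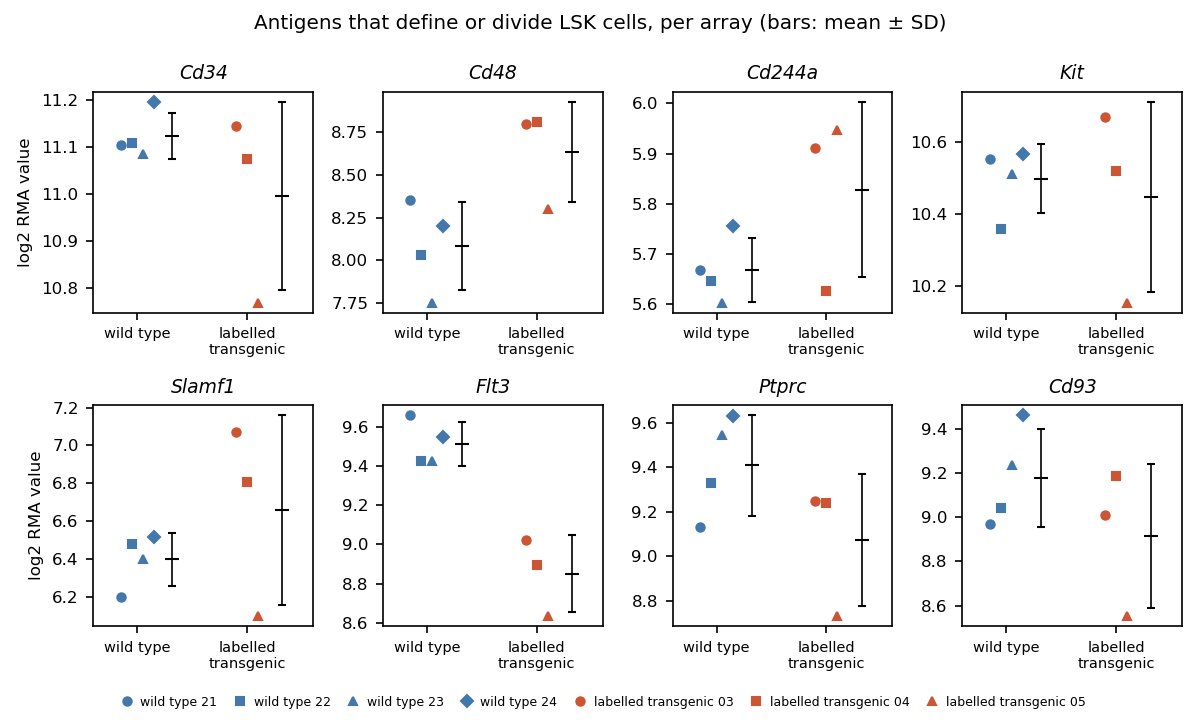
Log2 RMA values (vertical axis, 1 scale per gene) of 8 antigens that define or divide LSK cells, 1 point per array, with the mean ± SD beside each group. The groups are apart for Flt3, array 05 is low for Cd34, Kit, Slamf1, Ptprc and Cd93, and Cd48 is highest on labelled transgenic 03 and 04.

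The 7 progenitor and adhesion antigens, Cd34 among them, all had estimates below 0, also with quantile normalization, centring and array weights. Of all 23332 clusters, 11742 had estimates below 0. CD52 is a short lipid-anchored glycoprotein of lymphocytes. Cd52 read 7.89, 8.23 and 7.82 on labelled transgenic 03, 04 and 05 and 8.27, 8.64, 8.62 and 9.08 on wild type 21, 22, 23 and 24. The groups were apart by a narrow margin between array 04 and wild type 21. The difference was -0.67 (SE 0.20, adjusted p = 0.382).

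Cd44, the hyaluronan receptor, read 8.75 to 8.92 in labelled transgenic cells and 8.80, 9.32, 9.42 and 9.54 in wild type, where array 21 sat with the labelled transgenic group. Its difference was -0.43 (SE 0.18, adjusted p = 0.488), and without wild type 21 it was -0.58. Cd93, a receptor of early progenitors and endothelium, differed by -0.26 (SE 0.19), and by -0.08 without labelled transgenic 05. Cd47, which signals to macrophages not to engulf the cell, and Cd164, a sialomucin, differed by -0.10 (SE 0.10) and -0.09 (SE 0.11). Cd99l2, an X-linked relative of CD99, differed by -0.14 (SE 0.13).

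The tetraspanins cross the membrane several times and gather integrins and other receptors into patches. Of the 5 measured, Cd53, Cd9 and Cd81 were apart in the lower direction, as were 5.18% of all clusters. Cd82 and Cd151 had estimates above 0 and overlapped. Cd53, the tetraspanin of white blood cells, read 10.44, 10.63 and 10.34 on labelled transgenic 03, 04 and 05 and 10.74 to 10.91 in wild type (difference -0.33, SE 0.11, adjusted p = 0.410). Cd81, a broadly expressed tetraspanin, read 11.22, 11.36 and 11.12 against 11.40 to 11.61 (difference -0.28, SE 0.11, adjusted p = 0.453).

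CD9 is a tetraspanin of platelets and stem cells. Cd9 read 8.68, 8.67 and 8.10 on labelled transgenic 03, 04 and 05 and 8.77 to 8.98 in wild type. Array 05 was far below the other pair. The difference was -0.41 (SE 0.16, adjusted p = 0.453), and -0.22 without that array. Cd82, described in mouse marrow as an antigen of long-term stem cells, read 8.17 to 8.41 against 7.70 to 8.34 (difference 0.24, SE 0.17). Cd151 differed by 0.24 (SE 0.13).

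The promoters of Cd48 and of these 3 tetraspanins are shown because they are the members with unadjusted p under 0.05 in both families. Each is the 250 bases before the RefSeq start site in GRCm38.p6, 5′ to 3′ along the gene. Cd48 lies at chr1:171681742-171681991 on the plus strand, Cd53 at chr3:106790150-106790399 on the minus strand, Cd9 at chr6:125494761-125495010 on the minus strand and Cd81 at chr7:143052500-143052749 on the plus strand. Capitals mark a match to the NF-kB motif (GGG, any pair of bases, then TTTCC), the GATA motif AGATAAG or the ETS motif AGGAAGT on either strand.
Cd48: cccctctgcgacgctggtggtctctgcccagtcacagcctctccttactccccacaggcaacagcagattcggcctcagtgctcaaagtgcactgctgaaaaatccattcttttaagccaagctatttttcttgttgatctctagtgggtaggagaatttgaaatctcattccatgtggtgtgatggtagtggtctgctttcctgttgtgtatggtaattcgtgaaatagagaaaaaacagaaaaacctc
Cd53: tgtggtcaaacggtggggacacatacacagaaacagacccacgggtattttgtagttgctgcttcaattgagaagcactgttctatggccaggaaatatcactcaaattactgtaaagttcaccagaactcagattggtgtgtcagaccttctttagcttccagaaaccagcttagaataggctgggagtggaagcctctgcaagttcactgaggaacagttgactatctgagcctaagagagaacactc
Cd9: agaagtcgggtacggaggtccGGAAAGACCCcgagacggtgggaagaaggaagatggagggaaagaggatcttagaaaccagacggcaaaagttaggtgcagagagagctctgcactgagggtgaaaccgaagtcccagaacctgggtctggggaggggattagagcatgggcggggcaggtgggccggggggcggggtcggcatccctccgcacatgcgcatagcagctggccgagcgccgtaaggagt
Cd81: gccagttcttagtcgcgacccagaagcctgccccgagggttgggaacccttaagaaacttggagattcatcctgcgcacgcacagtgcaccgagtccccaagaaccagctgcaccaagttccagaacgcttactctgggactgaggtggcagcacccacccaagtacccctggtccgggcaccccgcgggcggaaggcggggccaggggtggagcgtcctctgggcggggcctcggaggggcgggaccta
The match is the NF-kB motif on the opposite strand of Cd9, from 229 to 220 bases before its start, and the other windows held none of the 3 motifs. Promoter sequences were matched for 50 members. The NF-kB motif occurred in 2 of them, Cd9 and Cd300lb (4.00%), against 1.65% of 27025 genes. The GATA motif occurred in 5 (10% against 3.17%) and the ETS motif in 9 (18.0% against 8.80%). These shares describe letters in a window and no binding was measured.

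Costimulatory receptors and their ligands pass the second signal between antigen-presenting cells and T cells. Cd28, the receptor for CD80 and CD86, had the smallest p of all 69 members. It read 7.20, 7.65 and 7.31 on labelled transgenic 03, 04 and 05 and 8.20, 8.23, 8.90 and 8.53 on wild type 21, 22, 23 and 24. All 3 lay below all 4. The difference was -1.08 (SE 0.20, limma adjusted p = 0.283), with a 95% interval from -1.55 to -0.61, and it ran from -1.21 to -0.93 on leaving out 1 array at a time.

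Cd83, a marker of activated dendritic cells, read 5.59, 6.06 and 5.89 on labelled transgenic 03, 04 and 05 and 5.95, 6.46, 6.35 and 6.79 in wild type. The groups overlapped at wild type 21 (difference -0.54, SE 0.21, adjusted p = 0.453). Cd86, a ligand of CD28 named here after its values were seen, was split within wild type, at 4.83 and 4.85 on arrays 21 and 22 and 5.81 and 5.66 on arrays 23 and 24. The labelled transgenic arrays read 4.77, 4.78 and 4.79, level with the lower wild-type pair. The difference was -0.51 (SE 0.27, adjusted p = 0.561) at low signal.

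The other members of this group overlapped between the groups. Cd274, which encodes PD-L1 and was named after its values were seen, spread from 6.33 to 7.51 over the 7 arrays (difference 0.32, SE 0.29). Cd40lg, the X-linked ligand of CD40, differed by 0.26 (SE 0.17) and Cd70, the ligand of CD27, by 0.17 (SE 0.13), both at low signal. Cd40, Cd80 and Cd276 lay between -0.08 and -0.02, the last 2 turning above 0 with centring.

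T and NK cell antigens were mostly read at low signal, 7 of the 13 under the 40th percentile. Cd96, a receptor of T and NK cells that is also found on immature blood cells, was among the better measured. It read 6.85, 6.57 and 5.74 on labelled transgenic 03, 04 and 05 and 7.21, 7.26, 7.16 and 7.73 in wild type. The groups were apart, with array 05 far below the rest (difference -0.96, SE 0.28, adjusted p = 0.375). Without array 05 the difference was -0.63.

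Cd4, the class II co-receptor of helper T cells, read 5.10 to 5.30 against 5.38 to 5.70 (difference -0.32, SE 0.12, adjusted p = 0.437) at low signal. Cd247, the zeta chain of the T cell receptor complex, and Cd6, a scavenger-type receptor of T cells, were also apart, each by -0.24 (adjusted p = 0.488 and 0.494). Cd160, a lipid-anchored NK cell receptor, was apart in the higher direction by 0.20 (SE 0.10, adjusted p = 0.547), also at low signal. Cd5 was apart by -0.12 (SE 0.09).

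The chains that define T cells overlapped between the groups. Cd3g differed by 0.21 (SE 0.18), Cd3d by -0.14 (SE 0.13), Cd3e by -0.11 (SE 0.18), Cd8a by -0.07 (SE 0.15) and Cd8b1 by -0.06 (SE 0.13, above 0 with centring). The 9 T and NK cell markers measured averaged 5.28 to 5.29 in labelled transgenic and 5.28 to 5.41 in wild-type cells, with 1 (Cd4) at unadjusted p under 0.05. The 7 B cell markers measured averaged 5.48 to 5.68 against 5.85 to 6.11, with 4 of 7 lower and 1 higher at unadjusted p under 0.05. The 6 class II and dendritic markers averaged 6.51 to 6.61 against 6.97 to 7.16, with 3 of 6 lower at that p. All clusters gave 5.05% lower and 5.22% higher. Among the B cell markers, Ebf1 differed by -1.43 (SE 0.23), Pax5 by -0.66 (SE 0.14), Cd79a by -0.67 (SE 0.22) and Blnk by -0.60 (SE 0.23). Estimates of Cd79b (0.41), Ms4a1 (0.20) and Cd22 (0.04) were above 0. Ms4a1 was among the lowest clusters in both groups (3.13 against 2.92 in wild type). The part of such cells in the differences of Cd28, Cd96, Cd52 and Cd83 was not tested.

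**Figure D3:**
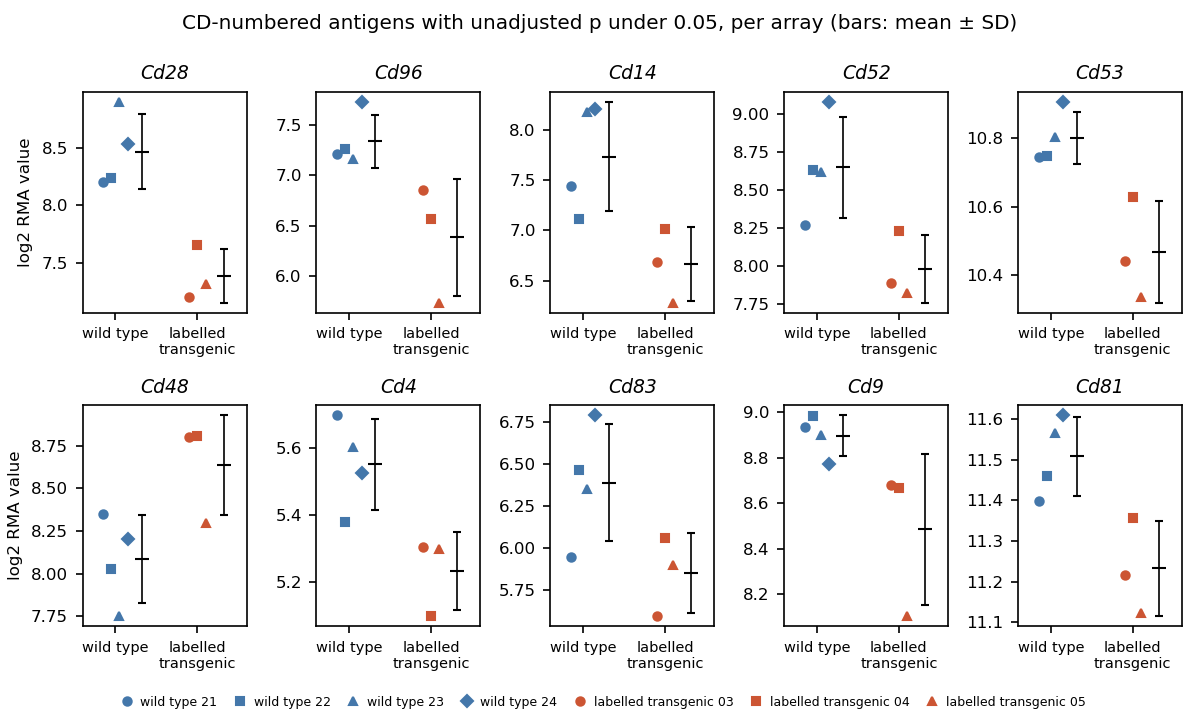
Log2 RMA values (vertical axis, 1 scale per gene, not starting at 0) of the 10 CD-numbered antigens with unadjusted p under 0.05, 1 point per array, with the mean ± SD beside each group. The groups overlap for Cd48 and Cd83 and are apart for the other 8.

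B cell antigens comprised 2 members. Cd72, a lectin-like inhibitory receptor, read 8.16, 8.12 and 7.24 on labelled transgenic 03, 04 and 05 and 8.11 to 8.27 in wild type, so its difference of -0.36 (SE 0.23) rested on array 05 and was -0.06 without it. Cd180, a Toll-like receptor relative, differed by -0.32 (SE 0.15, adjusted p = 0.510). Of the genes that the rule left out, 3 had the labelled transgenic arrays all below the wild-type arrays, as had 5.18% of all clusters. Cd74, the class II invariant chain, differed by -1.08 (SE 0.14, adjusted p = 0.227), the tetraspanin gene Cd37 by -0.47 (SE 0.12, adjusted p = 0.332) and Cd79a, a B cell receptor chain, by -0.67 (SE 0.22, adjusted p = 0.40). Its partner chain Cd79b differed by 0.41 (SE 0.17, adjusted p = 0.470) with overlap, and Cd22, another B cell receptor, by 0.04 (SE 0.12), also with overlap.

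Among the myeloid and scavenger receptors, Cd14 stood out. CD14 hands bacterial lipopolysaccharide to Toll-like receptor 4, whose signal runs through TRAF6. Cd14 read 6.69, 7.02 and 6.28 on labelled transgenic 03, 04 and 05 and 7.44, 7.11, 8.18 and 8.21 on wild type 21, 22, 23 and 24. The groups were apart by a narrow margin between array 04 and wild type 22, and the wild-type mice differed widely among themselves (SD 0.55, the largest of any member). The difference was -1.07 (SE 0.31, adjusted p = 0.375), with a 95% interval from -1.80 to -0.34.

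The 10 macrophage and monocyte markers measured averaged 5.18 to 5.36 in labelled transgenic and 5.19 to 5.28 in wild-type cells, and none of them stood at unadjusted p under 0.05. Tlr4, the receptor that CD14 serves, differed by -0.38 (SE 0.22, adjusted p = 0.592) with overlap. The 12 immediate early genes measured, which respond to handling and activation, averaged 9.86 on wild type 24 and 10.54 on wild type 21. The averages of the labelled transgenic arrays lay between. Single genes went both ways, 7 lower and 5 higher, from -0.83 (Nr4a1, SE 0.15) to 0.82 (Fos, SE 0.37). At unadjusted p under 0.05, 2 of the 12 were lower and none higher, while all clusters gave 5.05% lower and 5.22% higher. The part of these genes in the values of Cd14 and Cd83 was not tested.

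Cd33, a sialic acid-binding lectin of myeloid progenitors, was apart by -0.39 (SE 0.17, adjusted p = 0.496). Cd68, the macrophage lysosomal protein, differed by 0.11 (SE 0.20), and Cd163, Cd177, Cd36 and Cd163l1 lay between -0.13 and 0.05. Cd5l, a protein that macrophages secrete and so not a surface antigen despite its symbol, differed by -0.21 (SE 0.17) at low signal.

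The CD300 family holds activating and inhibitory receptors, most of them of myeloid cells, and the genes measured all lie on chromosome 11. Of the 7 measured, 5 had estimates above 0 (6 with centring and with quantile normalization, 4 with array weights), and all overlapped. Cd300e, an activating member, read 5.01, 5.11 and 4.81 on labelled transgenic 03, 04 and 05 and 4.58 to 4.87 in wild type (difference 0.28, SE 0.12, adjusted p = 0.492). Cd300lb differed by 0.34 (SE 0.22) and Cd300lg by 0.17 (adjusted p = 0.688). These 3 were of low signal. Cd300a, an inhibitory member, read 7.20 to 7.23 in wild type and 7.24, 7.13 and 6.61 on labelled transgenic 03, 04 and 05.

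The CD207 and CD209 lectins, which bind sugars on microbes, were all of low signal, with differences from -0.14 to 0.23. CD200 and its receptors, an inhibitory pair of lymphoid and myeloid cells, lay between -0.07 and 0.06. Of the complement regulators and the rest, Cd320, the receptor that takes up vitamin B12 bound to transcobalamin, read 8.09, 8.17 and 7.52 on labelled transgenic 03, 04 and 05 and 7.41 to 7.66 in wild type (difference 0.38, SE 0.17, adjusted p = 0.505). Array 05 lay within the wild-type range, and without it the difference was 0.59. Cd55 and Cd46, which protect cells from complement, differed by -0.21 (SE 0.27) and -0.23 (SE 0.18).

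**Figure D4:**
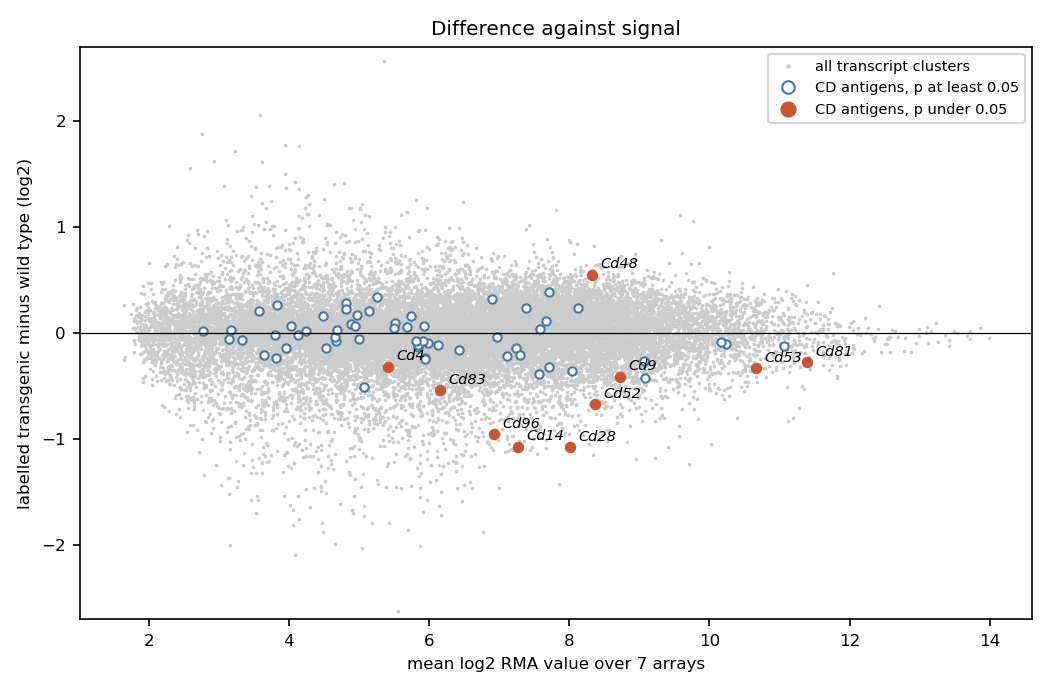
Difference (labelled transgenic minus wild type, log2, vertical axis) against the mean log2 RMA value over the 7 arrays (horizontal axis) for all transcript clusters in grey and the 69 CD-numbered antigens as circles. The 10 named members have unadjusted p under 0.05, and Cd28, Cd14 and Cd96 lie lowest. The axis leaves out 2 clusters that were lower by more than 2.7.

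The 6 members with the smallest p were also tested alone, by enumerating all 35 ways to draw 3 arrays out of 7, two-sided and with no correction for that choice. This exact permutation test gave p = 0.0286 for Cd28, Cd96 and Cd53, the smallest value that these 35 assignments can give. For Cd14 and Cd52 the exact permutation test gave p = 0.0571, and for Cd48 p = 0.0857.

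Proteins with a CD number but another gene symbol form the nearest comparison. Of 66 such genes on an incomplete list, 58 were measured, 28 with higher and 30 with lower estimates and a median difference of -0.01. At unadjusted p under 0.05, 4 were higher and 5 lower, 15.5% of the 58. All clusters gave 10.3%, with 5.22% higher and 5.05% lower. Epcam, an epithelial adhesion molecule (CD326), passed the adjusted threshold, with 5.74 to 5.78 in labelled transgenic and 6.69 to 6.83 in wild-type cells (difference -1.01, SE 0.09, limma adjusted p = 0.0399). It missed that threshold with centring and whenever 1 array was left out.

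Next by p on that list came Il1r1, Flt3, Selp and Cxcr4. The list lacked Cxcr2, also a CD-numbered receptor, which was apart in the higher direction at low signal (difference 0.67, SE 0.16, limma adjusted p = 0.316). Il1r1, the interleukin-1 receptor, differed by -0.97 (SE 0.16, adjusted p = 0.279). Selp, the platelet and endothelial adhesion molecule P-selectin, read 8.67, 8.39 and 7.50 on labelled transgenic 03, 04 and 05 and 7.21 to 7.40 in wild type (difference 0.89, SE 0.26, adjusted p = 0.375). Cxcr4, the chemokine receptor that holds stem cells in the marrow, differed by -0.60 (SE 0.19, adjusted p = 0.395), with overlap at wild type 21.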

How the data were processed

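LSK cell RNA of 7 mice was hybridised to exon arrays, 1 array per mouse. The deposited log2 values, 1 per transcript cluster and array, are RMA values from the authors, who also name the build mm9 (per the submitters' processing notes). RMA settings and probe filters are not given in the sources used here. No label states the scale, which was taken as log2 because values ran from 1.28 to 14.03. RMA usually equalises arrays, yet the medians of the deposited values ran from 5.98 (labelled transgenic 05) to 6.21 (wild type 24). Shifts of whole arrays therefore remained in part. The number of arrays limits the precision, and a p-value here speaks only of the spread among these 7 animals.

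The platform annotation gave 14996 clusters 1 symbol, 1019 several and 7317 none. Differences are labelled transgenic minus wild type, fitted with limma 3.58.1 (lmFit and eBayes, two-sided) in R 4.3.3 on all clusters, with genotype as the only term and Benjamini-Hochberg adjustment over all clusters. The fit was tested on simulated data. Named members were the 12 with the smallest p in each direction, a set of gating antigens and the 2 smallest p of each member list. Members named outside this rule (among them Cd5, Cd68, Cd84, Cd86, Cd274, Cd300a and the T cell receptor chains) were chosen after their values were seen. The members, lists and motifs were chosen with earlier results of these data known. Promoter sequences are from RefSeq, assembly GRCm38.p6, and were matched by Entrez identifier. Figures were drawn with matplotlib 3.10.9. The alternatives were a low-signal filter, quantile normalization, centring, array weights, a robust prior with an intensity trend, no moderation, 1 cluster per gene, a threshold of 0.1 and leaving out each array.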

Additional observations from a re-analysis of the deposited data

Results flagged for a closer look

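Among the wild-type groups of 85 genes (the 69 members and 16 others named), 3 held an array far from its fellows, with a gap to the nearest value above Dixon's 95% critical share of the group's range. Chance flags about 1 in 20 groups. Wild type 21 read 6.07 for Cd163, against 5.83 to 5.85 on the other wild-type arrays. It also read 7.43 for Cd99l2, against 7.23 to 7.26. Wild type 24 read 7.36 for Cd68, against 7.67 to 7.73. These genes were chosen after their values were seen.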

How the results depend on the processing

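None of the 69 members passed adjusted p under 0.05 in limma under the 14 alternatives or at a threshold of 0.1, while 10 had unadjusted p under 0.05. That count became 16 with quantile normalization (13.9% of all clusters) and 17 with 1 cluster per gene (12.7%), and ran from 6 to 11 on leaving out 1 array at a time (6.93% to 15.7%). The median difference over members ran from -0.0927 to -0.0554 on leaving out 1 array. Counts of members with groups apart, an alternative added after seeing the data, ran from 15 to 22 without 1 array, while the share of all clusters ran from 12.8% to 27.9%. The 31 members named by the rule all kept their sign under every alternative run, which their choice, largely by small p in each direction, favours. Outside that rule, Cd300ld, Cd226, Cd8b1, Cd276 and Cd80 turned sign with centring. Cd300ld, Cd226 and Cd80 also turned with quantile normalization, and Cd200r3, Cd209a, Cd300lf, Cd248 and Cd276 with array weights. Members outside the rule were not followed through the other alternatives. Kit turned to 0.00716 with centring and 0.0507 with array weights, and ran from -0.162 to 0.0965 (without labelled transgenic 05) on leaving out 1 array. Cd22 ran from -0.0483 (without labelled transgenic 05) to 0.0892, with -0.0153 without wild type 23. Cd74 passed with 1 cluster per gene (adjusted p = 0.0395, range 0.0395 to 0.597). The causes were not tested. No member had several clusters, so a choice of cluster could not be varied. No paired analysis was possible because the groups share no replicate numbers.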
